A study of Mus musculus with 8 samples.

Results

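Tuft cells are rare chemosensory cells of the gut epithelium. Their identity depends on the POU-domain transcription factor Pou2f3, and they are best known in the intestine for sensing luminal signals and passing them to the immune system. Tuft cells also transcribe a group of signalling genes that are otherwise typical of leukocytes, the white blood cells. The set described here held 9 genes chosen by symbol from that biology: the transcription factors Pou2f3, Gfi1b and Spib, the kinase-domain protein Dclk1 that is widely used as a tuft cell marker, and the signalling genes Vav1, Fyb, Plcg2, Rac2 and Inpp5d. All 9 were on the array, each with 1 row among 18097.

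The tissue was mucosa of the colon from 4 male mice aged 157 days, with a mixed strain background (129Sv/B6/D2). All 4 mice carried Dnmt1LO/LO, so the control mice are not wild type. The genotype of 2 of them also listed TgVillacIGY, and these are called transgenic. The labels spell out neither name and do not say which cells express the transgene. RNA of each mouse was measured on 2 Illumina MouseRef-8 BeadChip arrays, technical repeats that were averaged, which leaves n = 2 mice in each genotype. The comparison asks how colonic transcripts differ when Dnmt1 is inhibited. This enzyme restores DNA methylation on newly replicated strands.

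Levels are log2 values after background correction and quantile normalization between arrays, and a change is transgenic minus control on that scale. A gene was detected on an array when its detection p was under 0.01. The Dnmt1 row (ILMN_2720451) stood at 9.39 and 9.16 in control and 7.42 and 6.74 in transgenic animals (change -2.20, limma adjusted p = 0.129). Of 10 epithelial markers, 8 were detected, among them Krt8, Vil1, Cdh1 and Cdx2 on all 8 arrays, while Slc26a3 was detected on none. Detection is uneven for rows whose detection values are not whole steps, which none of the 9 genes has. Of 4177 such rows, 492 were detected on no array at levels above every array's lowest detected whole-step row, against 0 of the whole-step rows. Among the marker genes this concerned Car2, a bright colonocyte gene, and Cd8b1. Transgenic mouse 1 stood apart. Its mast cell protease Mcpt1 was at 11.54 against 5.70 to 8.0 in the other mice, and its colonocyte keratin Krt20 was at 11.06 against 13.19 to 13.59. The changes are therefore also given without that mouse. Mean raw signals ranged from 698 to 1080 over the arrays and were lowest on its 2 arrays.

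Of the 9 genes, 8 had a higher level in each transgenic mouse than in either control mouse, as did 19.3% of all rows, and Pou2f3 was detected on no array. The median change over the 9 rows was 1.20, against -0.0045 over all 18097 rows. It was 0.67 in the authors' series matrix values and 0.090 with the background fitted to all rows. In raw signals, before any normalization, all 4 transgenic arrays of these 8 genes were above all 4 control arrays, as they were for 3.23% of all rows. By normalized level the same 8 were separated in this way, against 6.24% of all rows. None of the genes passed the threshold of the fit. With 2 mice per genotype, limma with Benjamini-Hochberg adjustment called 0 of the 6 genes that entered it at an adjusted p under 0.05, beside 9 of 6982 rows (0.129%) called higher and 0 called lower. All 6 had an unadjusted limma p under 0.05, all higher in transgenic mice, as did 4.41% of tested rows in that direction and 3.95% in the other. Of the 6, Dclk1, Vav1 and Plcg2 were detected on every array. Spib, Fyb and Rac2 entered the test through the transgenic arrays alone and so had to differ, and Gfi1b and Inpp5d were detected on too few arrays to be tested.

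**Figure D1:**
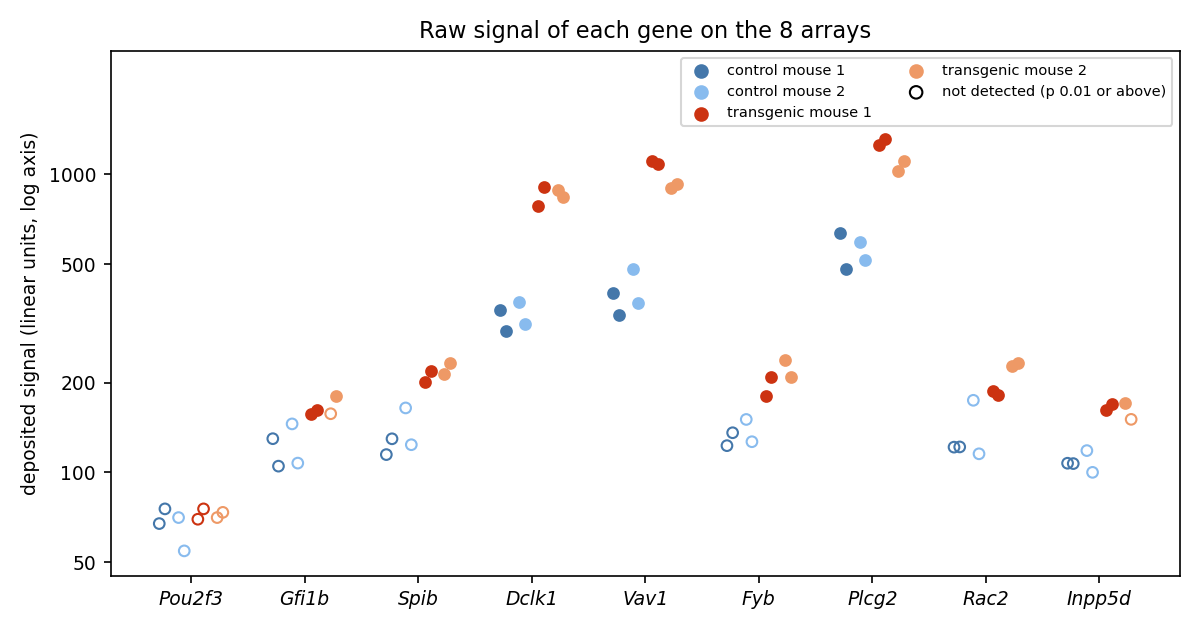
Deposited signal of the 9 genes (log axis, linear signal units) on the 2 arrays of each mouse; filled points were detected (p under 0.01) and open points were not. For every gene but Pou2f3 the 4 transgenic points lie above the 4 control points, and only Dclk1, Vav1 and Plcg2 have filled control points.

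Start regions give the sequence context of these genes. RefSeq windows of build GRCm38.p6, from 250 bases before to 50 after a transcription start, were found for 7 of the 9 genes (8 windows, since Dclk1 has a pair of starts). DNA methylation in mammals sits mainly on CpG, a C followed by a G, so CpG was counted. The windows held 2 to 21 CpG with a median of 6, against a median of 7 over all 32851 windows. The extremes are shown with each CpG in capitals, Spib at chr7:44532022-44532321 on the minus strand and Plcg2 at chr8:117498025-117498324 on the plus strand.
Spib: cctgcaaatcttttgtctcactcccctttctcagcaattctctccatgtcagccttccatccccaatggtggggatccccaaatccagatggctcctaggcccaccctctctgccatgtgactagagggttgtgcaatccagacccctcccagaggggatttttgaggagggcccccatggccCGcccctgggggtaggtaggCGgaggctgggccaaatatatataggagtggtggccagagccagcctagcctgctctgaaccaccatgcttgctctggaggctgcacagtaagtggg
Plcg2: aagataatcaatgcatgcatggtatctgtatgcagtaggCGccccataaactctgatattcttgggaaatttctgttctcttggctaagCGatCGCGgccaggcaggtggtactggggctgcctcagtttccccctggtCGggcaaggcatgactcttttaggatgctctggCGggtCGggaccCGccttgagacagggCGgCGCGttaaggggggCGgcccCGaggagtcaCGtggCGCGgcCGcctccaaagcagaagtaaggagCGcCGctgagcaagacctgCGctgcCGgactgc
Spib had 2 CpG, and 14.1% of all windows had fewer. Plcg2 had 21, and 75.2% had fewer. Methylation itself was not measured in these samples.

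A second pair of windows was chosen for a motif. Spib belongs to the ETS family. It is known for the PU box, with the core GAGGAA, and POU2 proteins are known for the octamer ATGCAAAT. Both were searched on both strands. The octamer was in 0 of the 8 windows, so no matches of the motifs overlapped there, and in 1.74% of all windows. The PU box core was in 4 of the 8, of Dclk1, Vav1, Fyb and Inpp5d, and in 28.3% of all windows. It is in capitals in Vav1, at chr17:57278850-57279149, and in Inpp5d, at chr1:87620062-87620361, both on the plus strand.
Vav1: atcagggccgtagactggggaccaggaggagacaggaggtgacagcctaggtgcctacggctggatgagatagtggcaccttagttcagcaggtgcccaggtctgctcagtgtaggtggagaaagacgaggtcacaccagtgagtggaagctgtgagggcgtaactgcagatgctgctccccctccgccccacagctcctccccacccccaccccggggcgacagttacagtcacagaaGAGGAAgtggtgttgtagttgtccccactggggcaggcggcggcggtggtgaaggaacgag
Inpp5d: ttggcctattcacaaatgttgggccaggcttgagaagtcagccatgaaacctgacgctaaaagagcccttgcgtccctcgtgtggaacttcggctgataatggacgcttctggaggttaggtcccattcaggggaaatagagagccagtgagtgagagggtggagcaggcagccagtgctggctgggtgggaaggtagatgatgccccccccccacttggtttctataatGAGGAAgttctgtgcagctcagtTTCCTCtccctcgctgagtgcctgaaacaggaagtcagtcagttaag
Inpp5d held it at 2 places, as did 4.82% of all windows at 2 or more. A match describes the letters of a window and is not a binding site.

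Among the transcription factors, Pou2f3, which is required for tuft cells to form, gave no usable signal. Its row (ILMN_2736986) read 67.3 and 75.4 for control mouse 1, 70.5 and 54.5 for control mouse 2, 69.6 and 75.4 for transgenic mouse 1, and lastly 70.5 and 73.4 for transgenic mouse 2. The lowest detection p on any array was 0.581, so no fold is given and its level could not be compared. The mean of the background fitted to the arrays was 80.0 to 95.5.

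Gfi1b is a zinc-finger repressor of erythroid cells and megakaryocytes that tuft cells also express. Its row (ILMN_2895557) read 129.7 and 105 for control mouse 1, 145 and 107 for control mouse 2, 157.2 and 162 for transgenic mouse 1, and lastly 157.3 and 181 for transgenic mouse 2. It was detected on 0 of 4 control arrays and 3 of 4 transgenic arrays. The array that missed the threshold was array 1 of transgenic mouse 2. The genotypes did not overlap, but the gap between the highest control array and the lowest transgenic array was small. Its fitted change was 0.89, which was not tested. Taking each control array at its lowest detected whole-step row, the transgenic mean was at least 1.08-fold higher. That bound rests on transgenic mouse 1, since transgenic mouse 2, at 6.31, lay under the mean of those control levels (6.43).

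Spib is an ETS factor of B cells that also marks tuft cells and M cells, the antigen-sampling cells over lymphoid follicles. Its row (ILMN_1233927) read 114.7 and 129.6 for control mouse 1, 164.5 and 124 for control mouse 2, 201 and 219 for transgenic mouse 1, and lastly 213 and 233 for transgenic mouse 2. It was detected on all 4 transgenic arrays and on no control array. The fitted change was 1.27 ± 0.25 (SE, limma adjusted p = 0.262), and against the lowest detected level of the control arrays Spib was at least 1.69-fold higher. Normalized levels were 5.71 and 6.11 for control and 7.41 and 6.95 for transgenic mice, so the groups did not overlap.

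Dclk1 had the largest fitted change of the set in the processing reported. Vav1 was ahead of it without transgenic mouse 2 (2.05 against 1.92) and, narrowly, without control mouse 2 (1.74 against 1.72). Without background correction and in series matrix values Vav1 was ahead by less than rounding shows (1.43 for both genes). Plcg2 and Vav1 were ahead with background from all rows. Dclk1 encodes a microtubule-associated protein with a kinase domain. Its row (ILMN_1217517) read 351 and 297 for control mouse 1 and 372.5 and 315 for control mouse 2. It read 783 and 904 for transgenic mouse 1 and 889 and 842 for transgenic mouse 2. Every transgenic array read more than the brightest control array by a wide margin. On the normalized scale, control mice averaged 8.01 ± 0.08 and transgenic mice 9.67 ± 0.37 (SD, n = 2). The change of 1.66 ± 0.24 (SE) corresponds to 3.16-fold (limma adjusted p = 0.156). It was the 60th largest increase of 6982 rows tested.

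The signalling genes act close to the membrane in leukocyte receptor pathways. Vav1, a guanine nucleotide exchange factor, is mostly restricted to blood cells. Its row (ILMN_1224077) read 401 and 337 for control mouse 1, 480.2 and 369.9 for control mouse 2, 1105 and 1083 for transgenic mouse 1, and lastly 897 and 927 for transgenic mouse 2. The spread was wider between the transgenic animals, yet both lay well above the controls. The level went from 8.30 ± 0.17 to 9.92 ± 0.61 (SD, n = 2). That is 3.07-fold, with a change of 1.62 ± 0.33 (SE, limma adjusted p = 0.266).

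Plcg2 is the phospholipase that turns receptor signals into calcium release in B and myeloid cells. Its row (ILMN_2601833), the brightest of the set in raw signal, read 637 and 483 for control mouse 1, 593 and 518 for control mouse 2, 1254 and 1317 for transgenic mouse 1, and lastly 1026 and 1113 for transgenic mouse 2. The control mice were nearly level with each other at 8.88 and 8.89, and the transgenic mice stood at 10.64 and 9.73. The change was 1.30 ± 0.33 (SE), or 2.46-fold (limma adjusted p = 0.406). Its adjusted p was the largest of the 6 genes tested, and its transgenic mice lay farthest apart.

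Fyb, Rac2 and Inpp5d were not detected on any control array. Fyb is an adaptor that links T cell receptor signals to integrins, and its row (ILMN_3006219) read 123 to 150.5 on control arrays and 179.8 to 238 on transgenic arrays. It was at least 1.59-fold higher (fitted change 1.15 ± 0.19, SE, limma adjusted p = 0.193). Rac2 is a GTPase of blood cells that works in the neutrophil NADPH oxidase and is a target of Vav1. Its row (ILMN_2600678) read 121.5 and 121.7 for control mouse 1, 174.5 and 115 for control mouse 2, 187.5 and 182 for transgenic mouse 1, and lastly 228 and 232 for transgenic mouse 2. The gap between genotypes was narrow, because array 1 of control mouse 2 came close to transgenic mouse 1. It was at least 1.57-fold higher (fitted change 1.20 ± 0.21, SE, limma adjusted p = 0.200). Inpp5d, also known as SHIP1, is the inositol phosphatase that limits PI3-kinase signals. Its row (ILMN_2959191) read 118 or less on control arrays and 150.6 to 171.5 on transgenic arrays, of which 3 of 4 were detected. Its transgenic mean was at least 1.06-fold higher, with a fitted change of 1.17 that was not tested. That bound also rests on transgenic mouse 1, since transgenic mouse 2, at 6.17, lay under the mean control level used for it (6.43).

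Detection gave the same contrast without normalization between arrays, although the signal it needs differed by array. Gfi1b was detected at 157.2 on array 1 of transgenic mouse 1, while Rac2 was not at 174.5 on array 1 of control mouse 2. Of the 9 genes, 5 were detected on 0 control arrays and on 3 or 4 transgenic arrays, namely Gfi1b, Spib, Fyb, Rac2 and Inpp5d. Over all rows this was so for 0.602%, and the reverse pattern for 0.232%. Without the detection filter, with all 18097 rows tested, limma called 0 of the 9 and gave adjusted p = 0.505 for Gfi1b and 0.516 for Inpp5d. Of the 9 genes, 8 then had an unadjusted p under 0.05, as did 8.42% of all rows in either direction. Over all alternatives that tested them, limma's adjusted p ranged from 0.489 to 0.505 for Gfi1b and from 0.360 to 0.516 for Inpp5d.

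Fitted changes of the 8 detected genes ran from 0.89 for Gfi1b to 1.66 for Dclk1 (SD over genes 0.25), a range that widened to 0.47 to 1.43 in series matrix values and 0.05 to 1.00 with background from all rows. By normalized level, transgenic mouse 1 was higher than transgenic mouse 2 in each of the 8, by 0.10 for Rac2 to 0.91 for Plcg2 (median 0.49). Raw signals kept this order on every array for Vav1 and Plcg2 but not for the others. Rac2 read 187.5 and 182 for transgenic mouse 1 and 228 and 232 for transgenic mouse 2. On the normalized scale, control mouse 2 was also above control mouse 1 in each of the 8, by a median of 0.15. Against the control mean, the median change over the 9 genes was 1.50 for transgenic mouse 1 but 1.01 for transgenic mouse 2. Because the mucosa was measured in bulk, more cells of a type and more RNA per cell cannot be told apart.

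**Figure D2:**
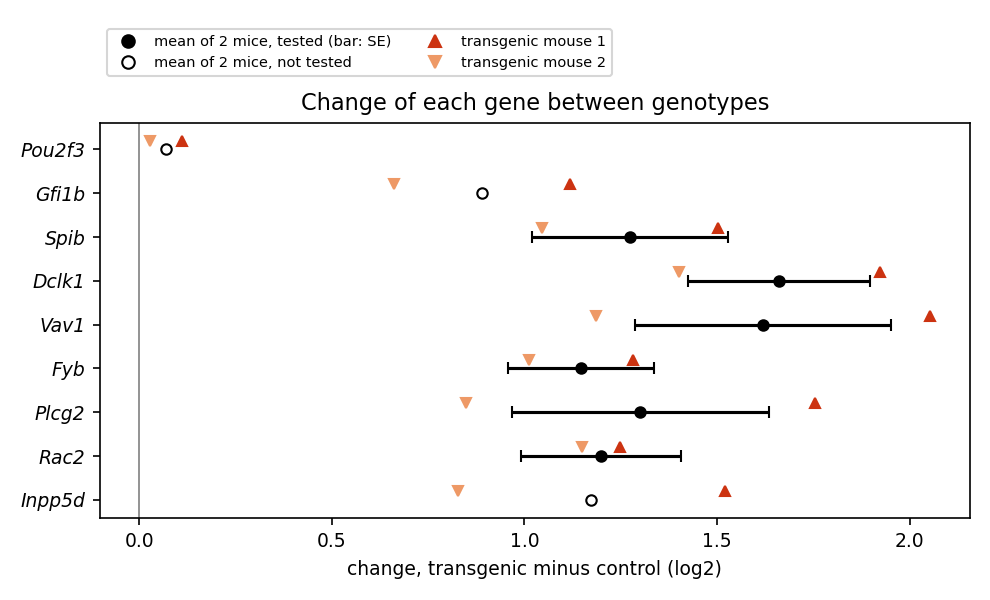
Change of each gene on the log2 scale (transgenic minus control). Black points are the mean of 2 transgenic mice against 2 control mice. Bars of 1 SE are given for the 6 genes tested, and open circles mark the 3 that were not. Triangles give each transgenic mouse alone. For all 8 detected genes mouse 1 lies to the right of mouse 2, an order of normalized levels that the raw signals of Rac2 reversed.

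Without transgenic mouse 1, the 8 detected genes had changes from 0.66 for Gfi1b to 1.40 for Dclk1, and all stayed above both control mice. Vav1 was at 1.19, Plcg2 at 0.85 and Inpp5d at 0.83 in that comparison. Without transgenic mouse 2, the changes ran from 1.12 to 2.05 and limma called all 6 tested genes, with a spread taken from the control mice alone. In that fit 849 of 6982 rows (12.2%) were called in either direction, and Spib, Fyb and Rac2 had entered it through the transgenic arrays. The call thus changed with the transgenic mouse used, while the direction of these 8 genes was the same with either.

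Sizes of the dim genes also rest on background correction. With the background fitted to all rows, the changes of Gfi1b, Spib, Fyb, Rac2 and Inpp5d were 0.05 to 0.10, whereas Dclk1, Vav1 and Plcg2 kept 0.78, 0.95 and 1.00. That fit includes the rows with uneven detection. It put the background SD at 389 to 682 in signal units, against 13.7 to 24.2 in the fit reported. Median raw signals of the arrays were 102 to 129. In the authors' series matrix values, which are not background corrected, the same 5 were at 0.47 to 0.73 and these 3 at 1.43, 1.43 and 1.19.

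**Figure D3:**
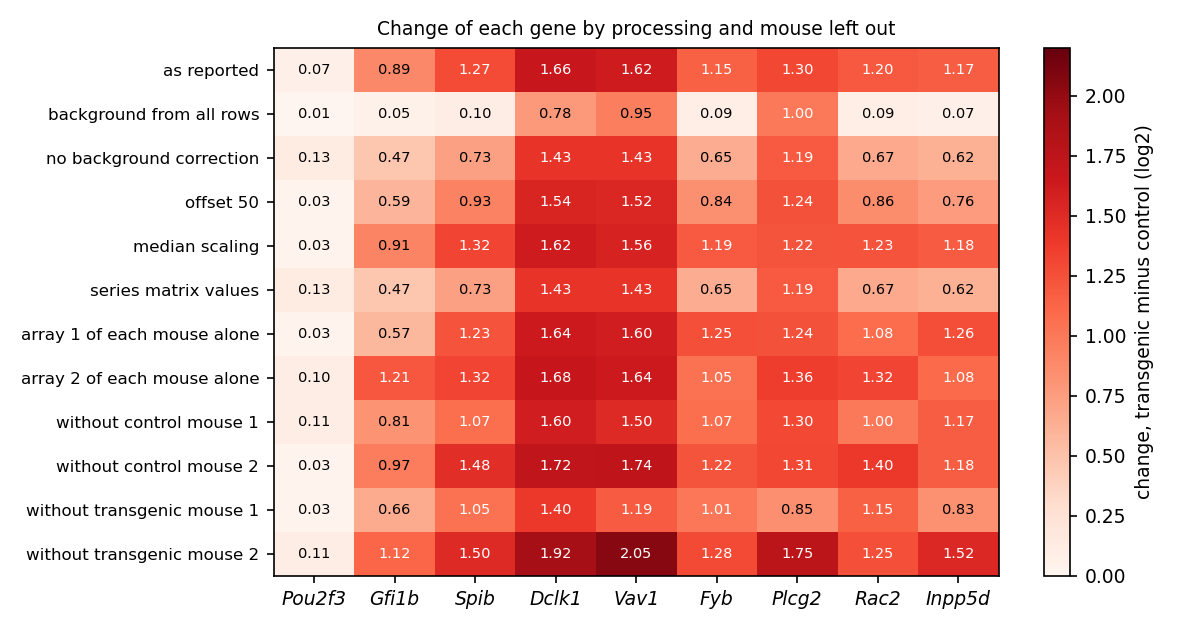
Change of each gene (log2, colour and number) under the processing reported, under other processing and with 1 mouse left out. The 5 dim genes drop to 0.05 to 0.10 with background from all rows, while Dclk1, Vav1 and Plcg2 stay at 0.78 or more throughout. The background SD of that fit was 389 to 682 in signal units.

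**Figure D4:**
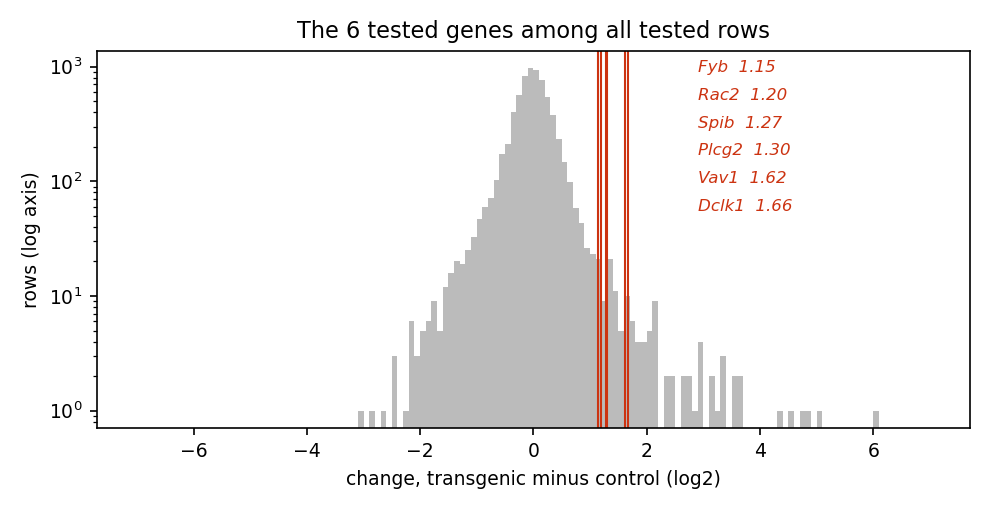
Histogram of the changes of all 6982 tested rows (log2, bins of 0.1, log axis for the number of rows), with red lines at the 6 genes tested, from Fyb (1.15) to Dclk1 (1.66). The lines lie in the upper tail, below the rows with the largest increases.

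The closest relatives of the 9 genes, which are not known as tuft markers, were compared next. Of 13 such paralogues, 12 were on the array and 6 were tested. Limma called 0 in either direction, with 0 at an unadjusted p under 0.05, and the median change was 0.16, against -0.0097 over all tested rows. Rac3 had a change of 0.21 (adjusted p = 0.742) and Vav3 of 0.23 (adjusted p = 0.801). The Vav3 row is one without whole-step detection values, detected on 1 of 4 control arrays although at levels of 7.59 and 8.11 there. Rac3 alone of the 6 was higher in each transgenic mouse than in either control, as were 21.7% of all tested rows. Plcg1, Vav2, Spi1, Spic and Pou2f2 were detected on no array.

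Other tuft cell genes were uneven by list. Of 24 effector genes, 13 were tested, and 12 had a higher level in each transgenic mouse than in either control (21.7% of all tested rows did), with a median of 1.42. Limma called 0, with 10 of 13 at an unadjusted p under 0.05. Alox5 and Hebp1, counted among the 13, entered the test through the transgenic arrays alone and so had to differ. The G protein subunit Gng13 and Kctd12 had the smallest p in that list, with changes of 1.99 and 1.42 (adjusted p = 0.107 and 0.112). Of 18 further signalling genes of the tuft signature, 5 were tested, 0 called and 2 had an unadjusted p under 0.05. The same number, 2 of 5, were higher in each transgenic mouse than in either control, and the median was 0.85. The 2 with the smallest p were the SH2-domain adaptor Sh2d7 at 1.50 and the phosphatase Ptpn6 at 0.85 (adjusted p = 0.247 and 0.313). Of 13 regulators, signals and receptors, 5 were tested, 0 called and 1 had an unadjusted p under 0.05. In 3 of the 5 each transgenic mouse was above either control, and the median was 0.30, or 0.16 for transgenic mouse 2 alone. Among them, Chat, which makes acetylcholine, was at 1.36 (adjusted p = 0.176) and the interleukin-25 receptor Il17rb at 0.55 (adjusted p = 0.639). Il25, the cytokine that tuft cells release, was detected on no array.

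Partners of Vav1, Fyb, Plcg2, Rac2 and Inpp5d in leukocytes had no such common direction. Of 38 partners, 32 were on the array and 16 of these were detected on no array, among them the kinases Syk and Zap70, the adaptor Lcp2 and the oxidase subunit Cybb. Of the 11 tested, 3 were higher and 1 was lower in both transgenic mice, as were 21.7% and 20.9% of all tested rows. The median was 0.013 and limma called 0, with 2 at an unadjusted p under 0.05. Btk, the kinase that acts on Plcg2, was at 0.62, and the PI3-kinase subunit Pik3cg was at 1.41 with control mice at 7.32 and 8.46 (adjusted p = 0.494 and 0.460).

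Markers of blood-derived cells, which also express several of these genes, were uneven. Of 13 markers shared by leukocytes, 7 were detected on no array, among them Ptprc, Cd53 and Tyrobp. The 4 tested had a median of -0.031, limma called 0 of them with 2 at an unadjusted p under 0.05, and their list's summed signal was 1637 and 1661 in control mice and 2543 and 1442 in transgenic mice 1 and 2. Cd44 was at 0.74 and Cd52 at -0.61 (adjusted p = 0.450 and 0.512). In transgenic mouse 2 all 8 detected genes of the set were higher than in the control mice, and this summed signal was lower. The part of leukocytes in the set's values was not tested. Of 10 B cell markers, 0 were detected on any array. T and NK cell genes were lower in both transgenic mice in 4 of 4 tested, as were 20.9% of all tested rows. Their median was -0.88, and the list's summed signal was 678 and 795 in control mice against 343 and 479 in transgenic mice. Cd3d was at -0.99 and Cd3g at -0.78 (limma adjusted p = 0.379 and 0.506), and 0 of the 4 were called, with 3 at an unadjusted p under 0.05.

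Mast cell markers were high in transgenic mouse 1. Their summed signal was 393 and 166 in control mice, and the transgenic mice had 4193 (mouse 1) and 234 (mouse 2). Mcpt1, Cpa3 and Fcer1a made up that signal, named after their values were seen. Cpa3 was at 9.21 in transgenic mouse 1 and 4.92 to 5.45 in the other mice, and Fcer1a at 9.09 against 5.82 to 6.28. The other 5 of 8 mast cell markers on the array, Mcpt2, Mcpt4, Tpsb2, Tpsab1 and Ms4a2, were detected on no array. In transgenic mouse 2, the mast cell sum lay within the range of the control mice and the set had a median change of 1.01. The part of mast cells in the values of either transgenic mouse was not tested.

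Other marker lists bear on single genes. Of 15 myeloid markers, 13 were detected on no array, and the summed signal was 2135 and 2132 in control mice against 2747 and 2273 in transgenic mice. Lyz1 and Cd14, the markers that were detected, were at 1.00 and 0.15 (limma adjusted p = 0.630 and 0.851). They made up most of that sum, while Lyz2, Csf1r and Adgre1 were among the markers not detected. Of the erythroid and megakaryocyte genes, which bear on Gfi1b, only the globin Hba-a1 and the platelet factor Pf4 were detected. Hba-a1 was at -3.04 and Pf4 at 2.03 (limma adjusted p = 0.626 and 0.401). The others on the array, Itga2b, Gp9, Hbb-b2, Klf1, Alas2 and Epor, were detected on no array. M cell genes, which bear on Spib, had a median of 0.11 over 3 tested, with Ccl9 at 0.67 and Anxa5 at -0.18. Their summed signal was 5938 and 5274 in control mice and 8067 and 5131 in transgenic mice, and Gp2, a defining M cell receptor, was at 6.61 in transgenic mouse 1, the one mouse where it was detected, and at 4.87 in transgenic mouse 2, under both controls (5.27 and 5.82). Neural and glial markers, which bear on Dclk1, were detected on no array (0 of 9). Epithelial markers summed to 102263 and 94068 in control mice, against 64979 for transgenic mouse 1 and 112015 for transgenic mouse 2. The part of these cell types in the results was not tested.

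**Figure D5:**
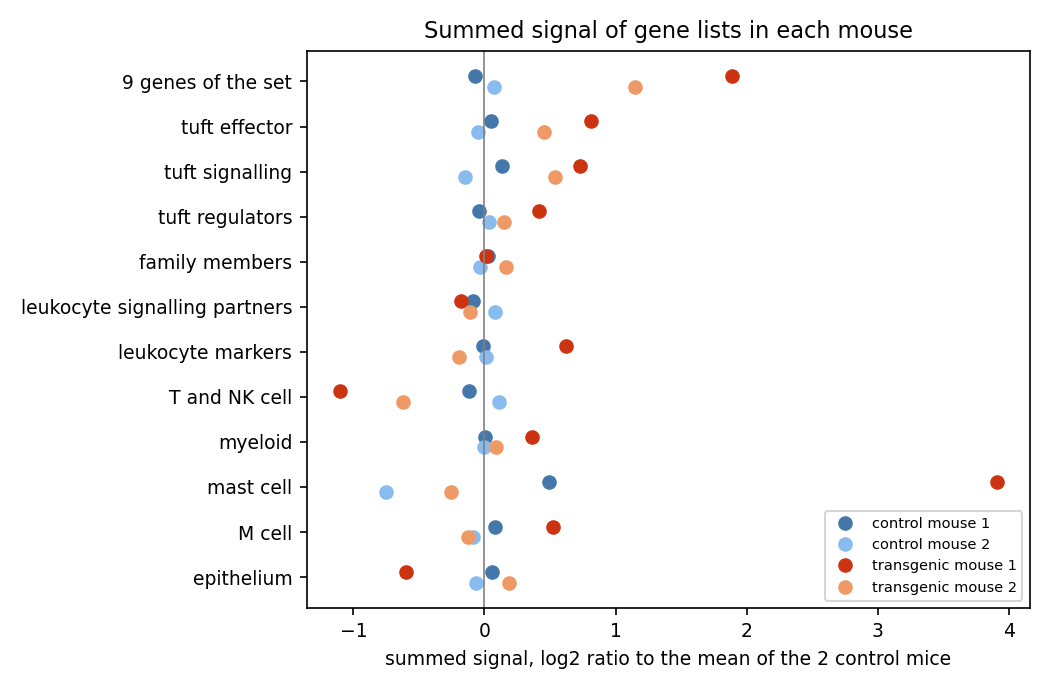
Summed linear signal of each gene list in each mouse, as the log2 ratio to the mean of the 2 control mice. The set and the other tuft lists lie to the right in both transgenic mice, and so do the family members and the myeloid genes. In transgenic mouse 2 the tuft regulators lie about as far right as the family members. T and NK cell genes and the leukocyte signalling partners lie to the left in both. Mast cell genes lie far to the right in transgenic mouse 1 alone.

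Rows with the most similar pattern were ranked by the root mean square difference between centred profiles over the 4 mice. The reference was the mean profile of the 6 tested genes, and 6452 tested rows with 1 gene symbol were candidates, with a median difference of 0.73. The closest were Adcy8 (0.061), Plvap (0.080), Map10 (0.084), Chat (0.091) and Ambp (0.097). Among the 9 genes, Spib was closest at 0.082, with 2 candidate rows nearer to the mean profile than it was. Spib is itself part of that mean and the candidates are not, so its distance is not alike to theirs. In the reference Spib, Fyb and Rac2, and among the candidates Adcy8 and Plvap, passed the filter through the transgenic arrays alone. Pou2f3 was farthest at 0.68. A likeness over 4 mice describes these samples alone.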

How the data were processed

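Colonic mucosa RNA of 4 mice was measured on 8 arrays. The submitters' processing notes name BeadStudio and Partek and give no versions. How beads were summarised is not given in the sources used here. The authors deposited intensity values on a linear scale, not normalized, in a table per row and array. The deposited detection value is a fraction. The header calls it a p although brighter rows have larger values, and its complement, 1 minus the value, was taken as the detection p. The authors' series matrix holds log2 values that differ by at most 0.0146 from log2 signals quantile normalized here.

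Background was corrected by normexp as in limma's neqc (offset 16), its parameters being inferred from detection values over 13920 rows whose values are whole multiples of 1/798 on every array (tolerance 0.005 of a step), then quantile normalized and taken to log2. All 9 genes have such rows. The arrays of a mouse were averaged. Rows with a detection p under 0.01 on at least 4 of 8 arrays (6982 of 18097) entered limma 3.58.1 (lmFit and eBayes, R 4.3.3, statmod 1.5.0), two-sided, 2 mice against 2, with Benjamini-Hochberg adjustment over all tested rows. The number of mice limits the precision: an exact permutation test cannot go below 0.333. Changes of dim rows are understated by the offset. A bound, "at least N-fold", sets the transgenic mean against the control arrays' values, each raised to that array's lowest detected whole-step row (6.29 to 6.56) where it is below it. Whole-step rows were chosen for this after the values were seen, since over all rows the lowest detected level (5.29 to 5.42) lay under most undetected control values. The bounds hold for the processing reported alone, and the changes of these genes were smaller in series matrix values (0.47 to 0.73).

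Genes were named through the platform annotation (16610 rows with 1 symbol, 1487 with none); RefSeq gene IDs changed 0 symbols. Summed signals are the linear normalized values less the offset, added over a list's genes with 1 row each, the brightest. The 15 lists, the 9 genes being one and of which the mast cell list was split off after values were seen, were chosen with earlier results of these data known. Named genes are the 9, up to 4 called genes per list or else the 2 with the smallest p, and the 5 most similar rows. Others named are defining markers or were chosen after their values were seen.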

Additional observations from a re-analysis of the deposited data

Results flagged for a closer look

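With 2 mice per genotype, single arrays were checked, 4 per genotype. For Fyb, array 1 of control mouse 1 was the lowest control array, at 5.76 (log2) with the next at 5.98. Its raw signal of 123 was close to the next, 127. For Rac2, array 1 of control mouse 2 lay far above the others, at 6.42, and its raw signal there was 174.5 against 115 to 121.7. Each gap passed Dixon's critical value for 4 values. With 4 independent values, chance alone passes it in about 1 in 20 groups, and 18 groups were checked. Here the 4 values are 2 arrays of each of 2 mice, so that rate need not hold.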

How the results depend on the processing

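Over the 18 alternatives, the direction of all 9 changes stayed positive, and 8 or 9 of the 9 genes lay higher in the transgenic mice in each. Alternatives that alter only the detection filter or the fit keep the mouse means, so the direction could not differ there. Pou2f3, counted in these numbers, was detected on no array. The median change of the set was 0.090 with background from all rows, 0.67 without background correction and also with series matrix values, and 0.86 with an offset of 50, since a larger offset or background compresses dim rows. Leaving out 1 mouse gave 1.01 to 1.50. The number of rows called, 9 as reported, was 0 with background from all rows (556 at an unadjusted limma p under 0.05) and 2 when no detection filter was set. Requiring all 8 arrays to detect a row gave 1, as did requiring at least 2 arrays of each genotype, and it was 188 with 8 arrays and the mouse as a random effect. It was 19 with limma-trend and no filter, an alternative chosen after seeing the data. Leaving out 1 mouse gave 0 to 849 rows and 0 to 6 genes of the set: 0 rows without control mouse 1 or control mouse 2 (333 and 199 at an unadjusted p under 0.05), 57 without transgenic mouse 1, and 849 rows and 6 genes without transgenic mouse 2. The lone mouse is assumed to vary like the other genotype. The labels' replicate number counts the 2 arrays of a mouse and pairs no mice; as a replicate block it left every change as it was and called 137 rows and 3 genes of the set, against 5 with the mouse as a random effect alone. Both of these fits take degrees of freedom from arrays. Calls of the set changed under no other alternative with 4 mice. Background near the level of Pou2f3 limits what can be said of it.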
